A study of Homo sapiens with 12 samples.

Results

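The annotated copies of RNA5-8SN, the genes of the shortest ribosomal RNA (rRNA) cut from the 45S precursor, were examined in RNA-Seq libraries of HEK293T cells, a human embryonic kidney line. A copy entered the analysis when its gene name began with RNA5-8SN and its counts summed to at least 100 over the 12 libraries, so the members were chosen by measured values, and they were known to be lower in the treated groups. Of 8 annotated copies among 58735 genes, 2 met this rule, and both carry the name RNA5-8SN2. The name alone does not identify a gene, since 7 of the 8 copies share it and the remaining copy is RNA5-8SN4. The copy with most counts, ENSG00000275215, is called the chromosome 21 copy here, and ENSG00000276700 the scaffold copy.

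All 12 libraries came from 1 wild-type line, with 3 replicates in each of 4 groups, and the design describes the replicates as independent. Cells of the DMSO group were given no compound. Those of the CEP group were given a clickable electrophilic purine, AHL-Pu-1, a probe that reacts with cysteines, for 1 h at 25 µM as the design text has it, while the treatment protocol on the labels gives the same figure in mM. The 4SU group received 4-thiouridine, a uridine analog that is built into new RNA and crosslinks to bound protein under UV light, for 16 h at 100 µM. The CEP+4SU group received both. The treatment protocol, UV crosslinking included, is written identically on every sample, so which groups were irradiated cannot be read from it. The RNA was selected on poly-T beads. The libraries held 16569114 to 24644734 counts on genes. CEP replicate 2 and CEP+4SU replicate 2 stood apart in the number of genes with a count, 22230 and 22627, against 24376 to 25869 in the other 10. The kidney line's markers VIM, KRT18, KRT8, NEFL, NEFM and LIN28B were present in every library at 53.9 CPM or more, whereas PTPRC and ALB, markers of blood and liver, stayed at or below 0.265 CPM, and CD3E and HBB had no counts.

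The RNA5-8SN rRNA is a short RNA of the large ribosomal subunit, where it pairs with the 28S rRNA. RNA polymerase I makes it as part of a long precursor, the 45S pre-rRNA, in which it lies between the 18S and 28S parts, and nucleases cut it free. The exosome trims its 3′ end, and RNase MRP cuts in the spacer ahead of its 5′ end. The precursor is encoded in repeated arrays on the short arms of the acrocentric chromosomes. The mature RNA has no poly(A) tail, so the counts measure RNA5-8SN RNA recovered with the poly-T selection and not its level in the cell. In bulk libraries fewer cells and less RNA per cell cannot be told apart.

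The sequence of the chromosome 21 copy is shown first because it shows why a read within the gene cannot be assigned to a single copy. It lies at chr21:8395607-8395759 on the plus strand of GRCh38, in an intron of the lincRNA FP236383.1 (chr21:8380665-8410645, same strand). Capitals mark the thymines, which are the uridine positions of the RNA and so the positions at which 4SU could be built in. The sequence is from the GENCODE 29 transcripts.

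RNA5-8SN2, ENSG00000275215: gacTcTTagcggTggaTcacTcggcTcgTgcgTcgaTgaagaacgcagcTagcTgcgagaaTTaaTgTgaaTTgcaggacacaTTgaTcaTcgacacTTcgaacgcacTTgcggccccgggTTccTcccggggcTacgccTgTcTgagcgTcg

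The 153 bases hold 34 T, 31 A, 43 C and 45 G, and the GC content is 57.5%, against a median of 48.5% over the 17718 tested genes with a value. The longest run of A is 2 bases. All 4 chromosome 21 copies with this name are identical over the 153 bases, and the transcripts of the scaffold copies are not analysed here. A read within the gene therefore matches all 4 copies equally. Flanking bases were not compared, so this does not cover reads or pairs that run past the gene. The 4 copies held 1087, 36, 2 and 0 counts, and the cause of this uneven split was not tested. How reads with several matches were counted is not given in the sources used here, so a split of counts over copies is not a split of expression.

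RefSeq (GRCh38.p14) gives the place of the chromosome 21 copy another name, RNA5-8SN3, at chr21:8395606-8395762, which is 157 bases, inside the 45S unit RNA45SN3 (chr21:8389035-8402343). The other chromosome 21 copies lie at chr21:8439823-8439975 (ENSG00000278189, RNA5-8SN1 in RefSeq), chr21:8212572-8212724 (ENSG00000278233, RNA5-8SN2 in RefSeq) and chr21:8256781-8256933 (ENSG00000277739, a pseudogene RNA5-8SP10 in RefSeq). The scaffold copy lies on KI270733.1 from 128877 to 129029, with another copy, ENSG00000275757, on the same scaffold from 173956 to 174108. ENSG00000274917 and the copy RNA5-8SN4 (ENSG00000273730) are on the scaffold GL000220.1, from 112025 to 112177 and from 155997 to 156149.

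Of the 5 genes annotated as RNA5-8SP pseudogenes, 0 had a count in any library. They are 70.7% to 93.5% identical to the chromosome 21 copy. The sequence of 1 of them, RNA5-8SP2 (chr16:34162959-34163110, plus strand), is shown because it has 13 mismatches and 1 gap along its length and is without counts. Capitals mark the mismatched bases, and the gap is not marked.

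RNA5-8SP2: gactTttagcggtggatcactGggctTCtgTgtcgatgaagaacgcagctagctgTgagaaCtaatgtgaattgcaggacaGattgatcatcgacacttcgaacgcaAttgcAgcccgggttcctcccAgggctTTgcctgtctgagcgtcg

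The 8 copies together held 1250 counts, of which the chromosome 21 copy had 1087 and the scaffold copy 121. The last value is just inside the minimum of 100. The DMSO libraries supplied 47 of those 121 counts, while each treated group supplied 23 to 26. The scaffold copy would have missed the minimum if any of the groups were left out, and DMSO supplied the most. Its higher level in DMSO is not independent of the rule that chose it. Just outside the minimum was ENSG00000278189 with 36 counts, 33 of them in DMSO replicate 3. ENSG00000275757 had 4 counts and ENSG00000278233 had 2, and ENSG00000277739, ENSG00000274917 and RNA5-8SN4 had 0. No gene name in the table began with RNA18S, RNA28S or RNA45S, so the partner rRNAs of the same precursor are not analysed here.

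The chromosome 21 copy had 142, 181 and 186 counts in the 3 DMSO libraries. It had 89, 39 and 73 with CEP, 83, 69 and 46 with 4SU, and 77, 59 and 43 with CEP+4SU. All 9 treated libraries lay below all 3 DMSO libraries, and the treated groups overlapped each other. Counting error alone, as an exact Poisson 95% interval that covers nothing else, was 27.7 to 53.3 counts for the lowest library, CEP replicate 2, and 120 to 167 for the lowest DMSO library.

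Scaled to CPM (counts relative to the library size, which was adjusted by TMM), the DMSO libraries had 6.25, 8.92 and 7.71 CPM. The CEP libraries had 4.74, 2.30 and 3.46 CPM. With 4SU alone the values were 4.39, 4.07 and 2.40 CPM. The second CEP library and the third 4SU library were the low ones of their groups. The CEP+4SU libraries had 4.14, 2.83 and 2.16 CPM. The group means were 7.63 ± 1.34 CPM for DMSO, 3.50 ± 1.22 for CEP, 3.62 ± 1.07 for 4SU and 3.04 ± 1.01 for CEP+4SU (SD, n = 3 each). DMSO was highest, and the means of the 3 treated groups lay within 1 SD of one another.

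Per length, the same copy averaged 49.4 ± 8.65 FPKM in the DMSO group, 22.6 ± 7.84 in the CEP group, 23.6 ± 6.96 in the 4SU group and 19.7 ± 6.54 in the CEP+4SU group (SD, n = 3 each). By mean FPKM in DMSO, 890 genes (1.52% of all genes in the table) were higher. A gene this short reaches such a rank with few reads, since FPKM divides by length.

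**Figure D1:**
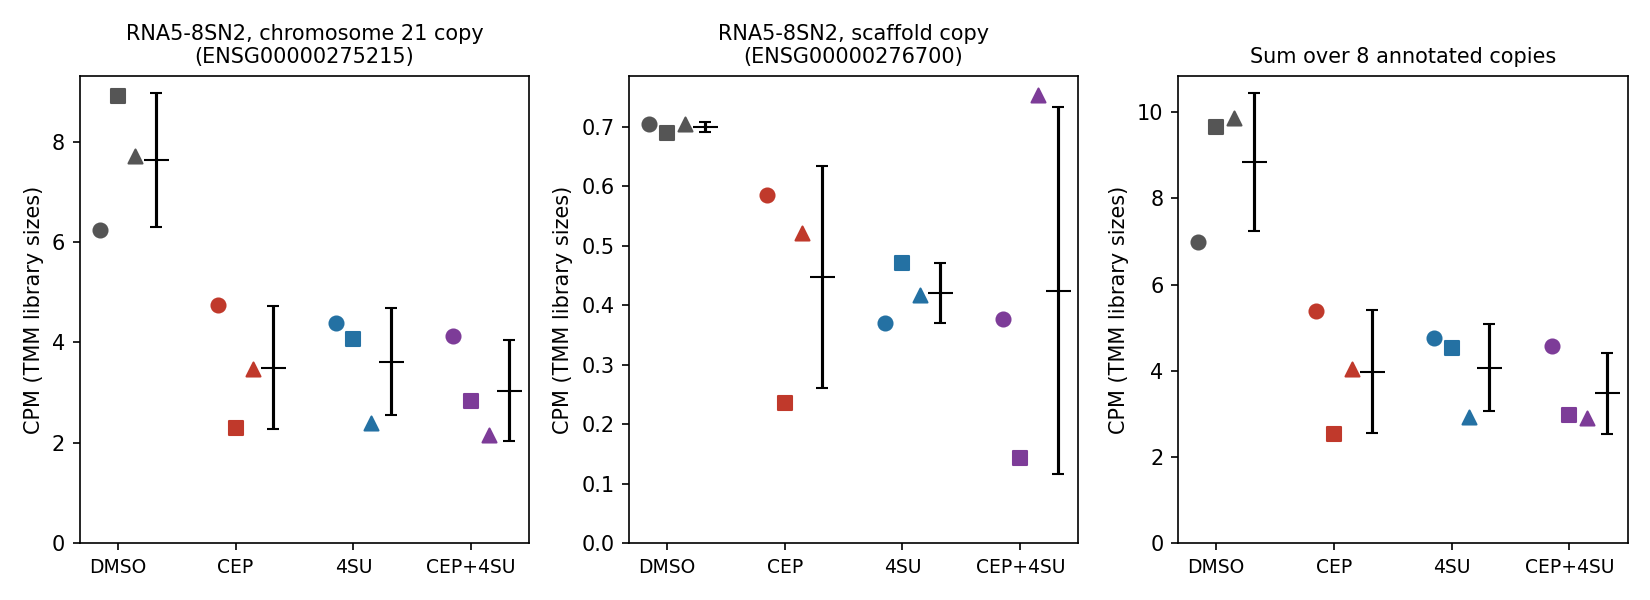
CPM (vertical axes, from 0) of the chromosome 21 copy, the scaffold copy and the sum over 8 copies in the 4 groups, with circles, squares and triangles for replicates 1, 2 and 3 and black bars for mean ± SD. For the chromosome 21 copy the DMSO libraries (6.25 to 8.92 CPM) lie above every treated library (2.16 to 4.74 CPM), while for the scaffold copy CEP+4SU replicate 3 lies above the DMSO libraries.

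In the quasi-likelihood fit, the log2 fold change of the chromosome 21 copy against DMSO was −1.12 (SE 0.279) with CEP. With 4SU it was −1.07 (SE 0.280). For CEP+4SU it was −1.33 (SE 0.282). These correspond to 0.461, 0.475 and 0.398 of the DMSO level. They are descriptions without a test, because the copy was chosen for being lower in these comparisons, and all 3 share the DMSO libraries. For scale, edgeR called 0.0564% of the 17729 tested genes at an adjusted p of 0.05 for CEP against DMSO, 0.00564% for 4SU against DMSO and 1.64% for CEP+4SU against DMSO. A lower fold change than that of the chromosome 21 copy was found for 1.43%, 0.57% and 0.66% of the tested genes in the same order, while all tested genes together had a median log2 fold change of −0.0047, −0.0073 and 6.61e-05.

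Leaving out the second CEP and second CEP+4SU libraries, the 2 with fewer genes detected, gave −0.90 for CEP and −1.28 for CEP+4SU against DMSO. Leaving out 1 library at a time gave −1.38 to −0.90 for CEP, −1.24 to −0.84 for 4SU and −1.62 to −1.14 for CEP+4SU.

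Whether a second compound added to the first was tested by comparing treated groups with each other. The DMSO libraries still entered the fit's estimate of spread, and the copy was chosen for low values in every treated group. CEP+4SU against CEP gave a log2 fold change of −0.21 (SE 0.295, 95% interval −0.83 to 0.41, adjusted p = 0.885 by edgeR's quasi-likelihood test). CEP+4SU against 4SU gave −0.25 (SE 0.296, 95% interval −0.87 to 0.37, adjusted p = 0.803). Neither difference exceeded the spread between replicates, and the intervals run from 0.563 to 1.33 and from 0.547 to 1.29 of the level with 1 compound, so the data leave room for a difference in either direction. Without CEP replicate 1 the first of these changed sign, to 0.054. Fitted with only the 6 libraries of each comparison, the differences were −0.21 (SE 0.326) and −0.27 (SE 0.301). Over all genes edgeR called 0.00564% for CEP+4SU against CEP and 0.0451% for CEP+4SU against 4SU.

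**Figure D2:**
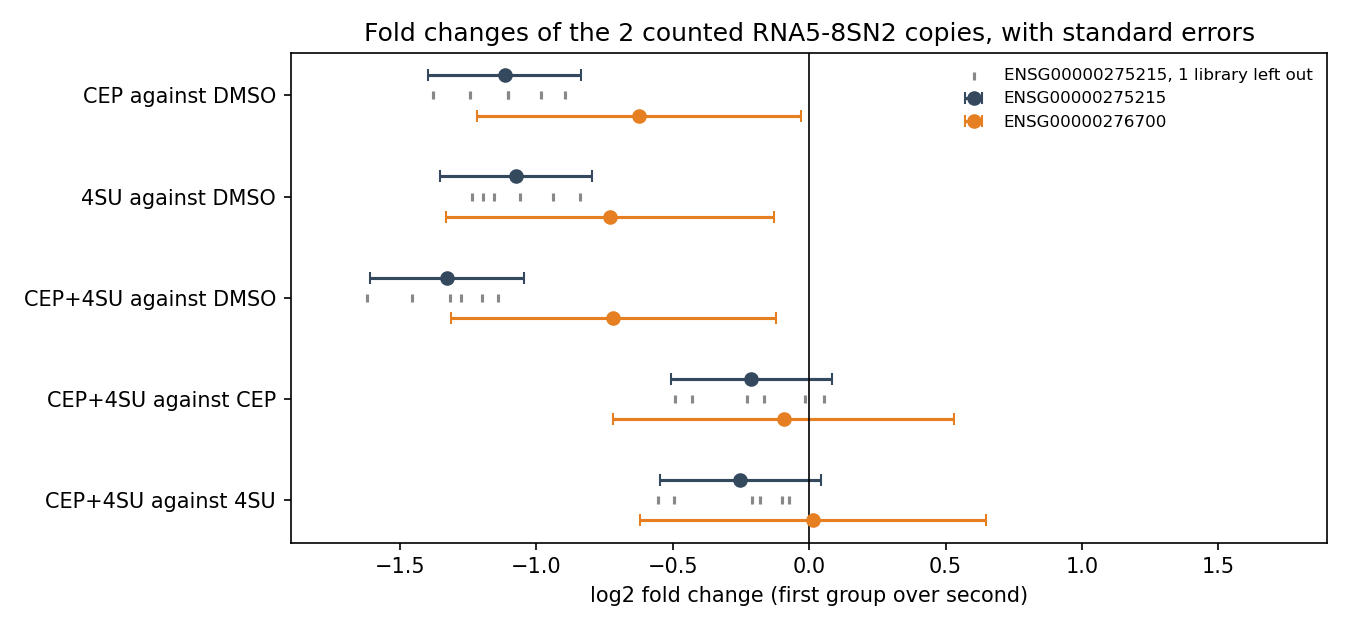
Log2 fold change (horizontal axis, first group over second) of both counted copies in 5 comparisons, with bars for the standard error, and grey ticks for the chromosome 21 copy (ENSG00000275215) refitted with 1 library left out. The 3 comparisons with DMSO sit between −1.33 and −1.07 for that copy, and the 2 between treated groups sit near 0 with bars that cross it, as does the scaffold copy (ENSG00000276700) in those 2.

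The chromosome 21 copy varied more between replicates than most genes. Its residual standard deviation in log2 CPM within groups was 0.431, against a median of 0.185 over the tested genes, and 78.5% of them varied less. Its biological coefficient of variation was 0.224, beside a common value of 0.114.

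The scaffold copy had 16, 14 and 17 counts in DMSO. It had 11, 4 and 11 with CEP, 7, 8 and 8 with 4SU, and 7, 3 and 15 with CEP+4SU. The DMSO libraries were close together and lay above the CEP and 4SU libraries, but CEP+4SU replicate 3, at 0.753 CPM, lay above the DMSO mean of 0.700 ± 0.00857 CPM (SD, n = 3). The means were 0.448 ± 0.186 CPM with CEP, 0.420 ± 0.0505 with 4SU and 0.424 ± 0.308 with CEP+4SU (SD, n = 3 each).

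This copy passed the low-count filter with 6 libraries at or above its minimum of 0.509 CPM, where 3 are needed. They were 3 of 3 in DMSO, 2 of 3 with CEP, 0 of 3 with 4SU and 1 of 3 with CEP+4SU. Its fold changes against DMSO, −0.62 (SE 0.593), −0.73 (SE 0.601) and −0.72 (SE 0.595), are descriptions without a test, as for the chromosome 21 copy. The scaffold copy also needed its DMSO libraries, among the others, to reach the minimum summed count. These values are therefore not a second, independent case. CEP+4SU against CEP gave −0.09 (SE 0.626, 95% interval −1.40 to 1.22, edgeR adjusted p = 0.981) and CEP+4SU against 4SU gave 0.01 (SE 0.634, 95% interval −1.31 to 1.34, edgeR adjusted p = 0.996). At this depth the data do not exclude changes within those intervals, in either direction.

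Both copies followed each other only in part. Over the 12 libraries Pearson's r of their log2 CPM was 0.512, and after each group's mean was subtracted it was 0.126, both as descriptions of libraries that share their depth. Of all RNA5-8SN counts the chromosome 21 copy held 85.8% in DMSO libraries, 87.8% in CEP, 88.8% in 4SU and 87.3% in CEP+4SU libraries. The share in single libraries ran from 74.1% in CEP+4SU replicate 3 (exact 95% interval 61.0% to 84.7%) to 95.2% in CEP+4SU replicate 2 (86.5% to 99.0%), with DMSO replicate 3 at 78.2% (72.4% to 83.2%).

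Summed over all 8 copies, the DMSO libraries had 7.0, 9.66 and 9.87 CPM. The CEP libraries had 5.38, 2.53 and 4.03 CPM. The 4SU libraries had 4.77, 4.54 and 2.92 CPM. No treated library reached the DMSO range. These sums are mostly the chromosome 21 copy, which was chosen for being lower in the treated groups, so they are not a second observation. In DMSO replicate 3, ENSG00000278189 added 1.37 CPM to the sum. With both compounds the sums were 4.57, 2.97 and 2.91 CPM. The mean sum was 8.84 ± 1.60 CPM for DMSO, while CEP averaged 3.98 ± 1.42, 4SU 4.08 ± 1.01 and CEP+4SU 3.48 ± 0.938 (SD, n = 3 each). CEP+4SU differed from CEP by −0.16 on the log2 scale (p = 0.7, exact two-sided permutation test) and from 4SU by −0.23 (p = 0.6, exact two-sided permutation test), where 0.1 is the smallest p that 3 libraries against 3 can give.

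Genes of proteins that make or hold this rRNA were examined as lists. The list of its maturation factors, with the exosome, the nucleases and the assembly factors around them, held 39 genes, all tested. In CEP+4SU against DMSO 2 of them (5.13%) were called by edgeR and both fell, beside 1.64% of all tested genes called, of which 176 fell and 114 rose. BOP1, a scaffold of the PeBoW complex needed for the late steps that form the rRNAs of the large subunit, had 190, 186 and 196 CPM in DMSO and 154, 109 and 144 with CEP+4SU. The groups did not overlap, and the log2 fold change was −0.49 (SE 0.118, edgeR adjusted p = 0.0449). EXOSC6, a subunit of the exosome ring, had 106, 102 and 110 CPM in DMSO and 83.8, 75.1 and 78.3 with CEP+4SU. Here too the groups were apart, with a log2 fold change of −0.42 (SE 0.081, edgeR adjusted p = 0.0237).

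Both calls depend on single libraries. Over the maturation factors and binding proteins together the count of 2 went to 0 without any one of DMSO replicates 1, 2 and 3 or CEP+4SU replicates 2 and 3. Over the 39 maturation factors the median log2 fold change was 0.05 with CEP, −0.04 with 4SU and 0.06 with CEP+4SU. Over all tested genes, an unadjusted p under 0.05 was found for 18.6% with CEP, 6.5% with 4SU and 21.4% with CEP+4SU, and DESeq2 called 1.52%, 0.107% and 7.03%. In the list, edgeR called 0 with CEP (10 of 39, or 25.6%, unadjusted and 1 by DESeq2) and 0 with 4SU (2 of 39, or 5.13%, unadjusted and 0 by DESeq2). With CEP+4SU 14 of 39, or 35.9%, had an unadjusted p under 0.05 and DESeq2 called 7. Between treated groups edgeR called 0 in both comparisons (0 and 5 unadjusted, against CEP and 4SU, beside 8.96% and 7.89% of all tested genes, and 0 by DESeq2 in each).

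The maturation factors with the highest levels did not pass the test in any comparison. RSL1D1, a nucleolar protein that binds ribosomal subunits, averaged 403 CPM over the libraries, with a log2 fold change of 0.07 with CEP, −0.06 with 4SU and 0.12 with both. DIS3, a nuclease of the exosome, had 0.21, 0.02 and 0.18 in the same order. PES1, a partner of BOP1, had −0.19, −0.16 and −0.29 (edgeR adjusted p = 0.0958 with both).

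The proteins of RNase MRP and its sister enzyme RNase P were 10 tested genes, with 0 called by edgeR in each comparison with DMSO (1, 1 and 4 at an unadjusted p under 0.05 and 1, 0 and 1 by DESeq2, for CEP, 4SU and CEP+4SU, where all tested genes had 18.6%, 6.5% and 21.4% unadjusted and 1.52%, 0.107% and 7.03% by DESeq2). The median log2 fold changes were 0.01, −0.01 and −0.09. POP7 and POP1, subunits of both enzymes, and RPP14, a subunit of RNase P, had the highest levels. In CEP+4SU their log2 fold changes were −0.28, −0.12 and 0.28.

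The list of 60S ribosomal proteins at this rRNA held 5 genes. All 5 had a negative value in each of the 3 comparisons with DMSO, beside 50.6%, 51.8% and 50.0% of all tested genes. The 3 comparisons share the DMSO libraries, so these signs are not independent of each other. EdgeR called 0 of the 5 (0, 0 and 1 unadjusted, and 0 by DESeq2 in each). The medians were −0.13, −0.10 and −0.14. RPL35, at 708 CPM the highest, had −0.12 with CEP, −0.20 with 4SU and −0.33 with both (edgeR adjusted p = 0.111 for the last). RPL23A had −0.31 with CEP (SE 0.197), which rests on CEP replicate 2 at 187 CPM. CEP replicates 1 and 3 had 427 and 478 CPM, and the DMSO libraries 441, 450 and 459. RPL37 had −0.13 with CEP (SE 0.104). All of these proteins sit near the exit of the ribosome's tunnel.

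**Figure D3:**
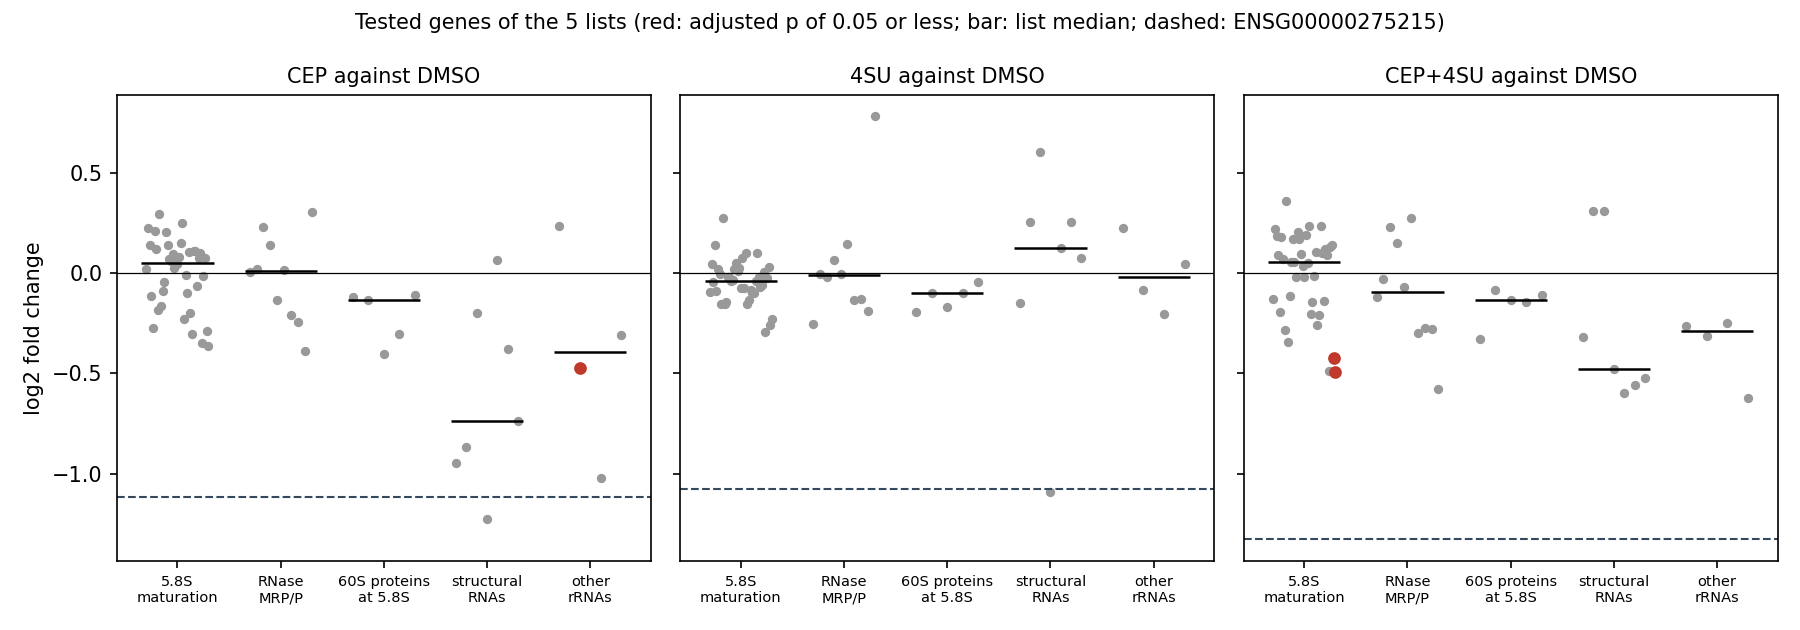
Log2 fold change against DMSO (vertical axis) of every tested gene of 5 lists, in 1 panel for each treated group, where black bars mark each list's median, red points genes with an adjusted p of 0.05 or less, and the dashed line the chromosome 21 copy. The 3 protein lists centre near 0 in each panel, with BOP1 and EXOSC6 in red for CEP+4SU and MT-RNR2 in red for CEP.

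Other RNAs without a long poly(A) tail were sparse in these libraries, so they give few values beside the RNA5-8SN copies. Of 53 genes for structural RNAs, such as the RNA of the signal recognition particle and small nucleolar RNAs, 24 had a count and 7 were tested. EdgeR called 0 in each of the 3 comparisons with DMSO, with 0 at an unadjusted p under 0.05 and 0 by DESeq2. The medians were −0.74 with CEP, 0.12 with 4SU and −0.48 with CEP+4SU.

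RN7SL2, a gene for the signal recognition particle RNA, had 66.2, 67.4 and 111 CPM in DMSO. With CEP the values were 69.0, 7.25 and 69.8. With 4SU they were 91.2, 74.9 and 91.6. With both compounds they were 70.3, 37.2 and 63.4. The second CEP and second CEP+4SU libraries were again the low ones, and outside them the CEP and CEP+4SU values overlapped DMSO. SNORD3A, a gene for the U3 RNA that guides the first cuts of the precursor, averaged only 1.34 CPM. Its log2 fold changes were 0.07 (SE 0.395), 0.12 (SE 0.395) and −0.60 (SE 0.409). SNORA73B, a small nucleolar RNA of the small subunit's pathway, averaged 1.14 CPM, with −0.87 (SE 0.511), 0.25 (SE 0.478) and 0.31 (SE 0.475). None of these passed the test. They have near-identical copies, so counts could be split among them, and RMRP, RPPH1, RN7SK and RN7SL1 were listed at 0.

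The other ribosomal RNAs, the mitochondrial ones and genes for 5S rRNA and its pseudogenes, were 532 genes of which 113 had a count and 4 were tested. MT-RNR2, the large mitochondrial rRNA, had 1307, 1577 and 1516 CPM in DMSO. The CEP libraries had 1057, 1055 and 1052, the 4SU libraries 1336, 1364 and 1454, and those with both compounds 1027, 1340 and 1166. Those with CEP lay below all DMSO libraries and close together. It fell by 0.48 on the log2 scale with CEP (SE 0.086, edgeR adjusted p = 0.0462), the 1 call in this list. The call was lost when either of DMSO replicates 2 and 3 or of CEP replicates 2 and 3 was left out.

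With 4SU MT-RNR2 had a log2 fold change of −0.08, and with CEP+4SU −0.32 (edgeR adjusted p = 0.0645). MT-RNR1, the small mitochondrial rRNA, had −1.02 with CEP (edgeR adjusted p = 0.196), and its DMSO libraries were uneven, with 356, 1142 and 1140 CPM. RNA5SP18, a 5S rRNA pseudogene, averaged only 0.857 CPM. It had −0.31 (SE 0.527), 0.04 (SE 0.517) and −0.62 (SE 0.535). Across the 4 tested genes edgeR called 0 with 4SU (0 unadjusted, 0 by DESeq2) and 0 with CEP+4SU (1 unadjusted, 1 by DESeq2).

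Other genes with a pattern like that of the chromosome 21 copy were ranked by Pearson's r of log2 CPM over the 12 libraries, among 14902 tested genes with a mean of at least 1 CPM. The 5 highest were ALX4 (r = 0.925), a homeobox transcription factor, COL13A1 (0.924), a transmembrane collagen, PRPF31 (0.905), a splicing factor, TYRO3 (0.895), a receptor tyrosine kinase, and IFFO1 (0.894), an intermediate filament family member. Their changes against DMSO were smaller, with ALX4 at −0.36, −0.32 and −0.37 and PRPF31 at −0.21, −0.13 and −0.22, and none passed the test.

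After group means were subtracted, which leaves the differences between replicates, the highest were ADAMTS2 (r = 0.952), a procollagen protease, ACTA2 (0.931), smooth muscle actin, ISM1 (0.927), a secreted protein, RHBDL3 (0.925), a rhomboid-family protein, and the lincRNA AL592295.4 (0.920). No gene was in both lists. These are descriptions over libraries that share depth and preparation.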

How the data were processed

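RNA-Seq of poly-T selected RNA was analysed for 12 HEK293T libraries. The counts per gene were made by the authors with HISAT2 2.0.5 and featureCounts 1.5.0-p3 on GRCh38, after reads with adapters, unknown bases or low quality had been dropped, and are deposited without normalization. The FPKM values are the authors' own, per gene length and library size. Group-mean FPKM and columns of the authors' comparisons were not used, and 0 sample columns were left unmapped. Strand use and the counting of reads with several matches are not given in the sources used here. Identifiers matched GENCODE 29 in 58735 of 58735 cases. RefSeq names come from GRCh38.p14.

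Groups and replicate numbers came from the labels. Genes were filtered with filterByExpr (minimum count 10, minimum total 15), which left 17729, normalized with TMM and fitted in 1 quasi-likelihood model over the 4 groups with edgeR 4.0.16 in R 4.3.3, with prior count 0.125 and Benjamini-Hochberg adjustment at 0.05 over all tested genes. The script was tested on simulated data. Sums over copies were compared with exact permutation tests, and 95% intervals of counts and shares cover counting error only. EdgeR's p-values set group differences against the spread between these replicates, which was estimated partly from all tested genes. Permutation p-values place the observed difference among all relabelings of 3 against 3 libraries. Total counts of 16569114 to 24644734 set the precision, and a count of 3 was taken as the floor.

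The members and gene lists were chosen with earlier results of these data known. The text names every RNA5-8SN gene, for each list the genes called in any of 5 comparisons and the 3 with the highest mean CPM, and the 5 genes most like the chromosome 21 copy by each of 2 correlations. Pseudogenes and genes in the 45S units were added after values were seen. Alternatives were DESeq2 1.42.0, limma 3.58.1 on log2(FPKM + 1) or log2(FPKM + 0.1), other normalizations and filters, the 6 libraries of a comparison alone, a replicate block and each library left out. Reads were not analysed here.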

Additional observations from a re-analysis of the deposited data

How the results depend on the processing

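Against DMSO the chromosome 21 copy kept its direction in every alternative run. It was chosen for being lower in these comparisons, so the kept direction is a description and not support. Beyond the libraries left out singly, the values were −1.17 to −0.90 for CEP, −1.22 to −1.01 for 4SU and −1.38 to −1.17 for CEP+4SU. CEP+4SU against CEP ran from −0.38 to −0.17, and from −0.49 to 0.054 with 1 library left out, where only the value without CEP replicate 1 was positive. CEP+4SU against 4SU ran from −0.28 to −0.15, and from −0.55 to −0.074 with 1 left out. Adjusted p over the alternatives ran from 0.690 to 0.994 and from 0.452 to 1.00. The summed copies ran from −0.45 to 0.092 against CEP with 1 library left out, positive without CEP replicate 1, and from −0.45 to −0.096 against 4SU.

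The counts of called genes changed more, and the cause was not tested. Over the 54 proteins, CEP against DMSO gave 2 with DESeq2, 4 without a low-count filter, and 0 to 7 with 1 library left out, the 7 without CEP replicate 1. CEP+4SU against DMSO gave 8, 6, 4 with the 6 libraries alone, 0 and 1 with limma on FPKM + 1 and + 0.1, and 0 to 3 with 1 left out. Over the other RNAs, CEP against DMSO gave 3 without a filter, 0 with at least 10 counts in every library, 0 with 6 libraries, 0 with either limma fit, and 0 to 1 with 1 left out. CEP+4SU against DMSO gave 1 with DESeq2, 4 without a filter and 0 to 1 with 1 left out, the 1 without CEP+4SU replicate 2. With 4SU all counts were 0.

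The replicate block gave −1.15, −1.12 and −1.38 against DMSO for the chromosome 21 copy, −0.23 against CEP and −0.26 against 4SU. It called 4 proteins with CEP, 11 proteins with CEP+4SU and 1 other RNA with CEP+4SU. Deviations of same-numbered libraries correlated at −0.047 to 0.141, over 0.1 in 1 of 18 pairs. Such correlations cannot show that same-numbered libraries were prepared apart, and CEP replicate 2 and CEP+4SU replicate 2 both had fewer genes detected. The main fit used no pairing.

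The settings that follow were chosen after seeing the data. Without both second libraries, CEP+4SU gave 1 protein and 1 other RNA. With the GC trend removed the copy had −0.97, −1.01 and −1.17, and CEP+4SU gave 1 protein and 1 other RNA. With the length trend removed it had −1.08, −1.22 and −1.37, and CEP gave 0 other RNAs. The counts per library limit small changes, above all for the scaffold copy.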

Other observations

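Genes within the annotated 45S units were located by position after values had been seen. MIR3648-1, a microRNA gene in the part of RNA45SN2 ahead of the 18S rRNA (chr21:8208473-8208652), had 1.19, 3.55 and 2.82 CPM in DMSO. It had 1.06, 0.118 and 1.28 with CEP, 1.27, 0.884 and 1.15 with 4SU, and 1.40, 0.240 and 1.10 with CEP+4SU. The first DMSO library lay among the treated ones, and the second CEP and second CEP+4SU libraries were again lowest. The log2 fold changes were −1.58 (SE 0.591), −1.18 (SE 0.578) and −1.47 (SE 0.586), with adjusted p of 0.197, 0.769 and 0.159 by edgeR. FP236383.2, an antisense gene in RNA45SN3 (chr21:8393419-8394341), had −0.41, −0.18 and −1.38, with adjusted p of 0.768, 0.975 and 0.270 by edgeR, and without knowledge of strand its reads cannot be told from those of the precursor.

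MIR3687-1, a microRNA gene further along RNA45SN2 (chr21:8208844-8208904), had 42 counts in all and was too low to be tested. It had 2, 2 and 6 counts in DMSO, 5, 0 and 3 with CEP, 1, 7 and 7 with 4SU, and 5, 1 and 3 with CEP+4SU, so the groups overlapped. FP671120.3 and FP236383.3, antisense genes in RNA45SN2 and RNA45SN1, had 3 counts and 1 count.

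Among the other 105 tested genes of at most 200 bases, 59 were lower than DMSO with CEP, 34 with 4SU and 42 with CEP+4SU, beside 50.6%, 51.8% and 50.0% of all tested genes. Their median log2 fold changes were −0.09, 0.23 and 0.12, and 6, 6 and 5 of them had a lower value than the chromosome 21 copy. EdgeR called 1, 0 and 3 of them lower and none higher, beside 0.0564%, 0.00564% and 1.64% of all tested genes called.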
